A study of Mus musculus with 2 samples.

Results

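The Toll-like receptors Tlr1, Tlr2, Tlr3, Tlr4, Tlr6, Tlr7, Tlr8 and Tlr9, the adaptor Myd88 and the kinase Irak4 were followed by taking every gene probe that the arrays name for these 10 genes, which gave 13 of 41174 gene probes. The RNA came from CD8+ T cells of Bcl11bF/F/dLck-iCre mice and of wild-type mice. In the Bcl11bF/F/dLck-iCre mice, floxed alleles of the transcription factor gene Bcl11b are removed by a Cre recombinase under the distal Lck promoter, which is active in T cells. All mice had been infected with Listeria monocytogenes-OVA, a bacterium that carries ovalbumin, and cells were taken on day 6 by negative selection to over 90% purity. The labels used here give no age or sex of the mice and do not say how many mice made up a sample. Each of the 2 arrays, called replicate 1 and replicate 2 below, carried deficient RNA in Cy5 and wild-type RNA in Cy3. The labels call them biological replicates. Since the dyes were not swapped, a dye effect on a probe and an effect of genotype cannot be told apart.

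Toll-like receptors recognise parts of microbes. Tlr2 pairs with Tlr1 or Tlr6 at the cell surface to sense bacterial lipoproteins, and Tlr4 senses lipopolysaccharide. Tlr3, Tlr7, Tlr8 and Tlr9 sit in endosomes and respond to nucleic acids. All of these receptors except Tlr3 signal through Myd88, which recruits Irak4, and Tlr4 can also use Ticam1. Macrophages, dendritic cells and B cells are the best known users of these receptors. In T cells, Tlr2 with Tlr1 can act as a costimulator, and Myd88 also serves the interleukin 1 and interleukin 18 receptors.

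Sequence upstream of the transcription start is shown for the 4 members that could be tested, because these are the members whose RNA was measured above background on both arrays in at least 1 channel. The sequences are from RefSeq on GRCm38.p6. The promoter table used here matched 8 of the 10 members, and promoters of Tlr4 and Tlr7 were not analysed here. Windows of 250 bases before the start were searched on both strands for the ETS core GGAAGT, the AP-1 site TGACTCA, the interferon response element (GAAA, any 2 bases, then GAAA) and the NF-kappaB consensus, motifs chosen with these promoters in view. The stretches for Tlr1 and Tlr2 are limited to 30 bases because they lie inside the span annotated for other transcripts of the same gene, and for Tlr9 and Myd88 the last 120 bases before the start are given. Capitals mark the motif.
Tlr1, chr5:64933562-64933591, minus strand: ttaaatgttggaGGAAGTaggagcttgaat
Tlr2, chr3:83841761-83841790, minus strand: aggacacctGGGGAATTCCCacacggagcc
Tlr2, chr3:83841621-83841650, minus strand: tgctggcgaccgGGAAGTtcggggccctga
Tlr9, chr9:106222478-106222597, plus strand: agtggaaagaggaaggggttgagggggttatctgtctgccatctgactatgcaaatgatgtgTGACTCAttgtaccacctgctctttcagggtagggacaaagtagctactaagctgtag
Myd88, chr9:119340019-119340138, minus strand: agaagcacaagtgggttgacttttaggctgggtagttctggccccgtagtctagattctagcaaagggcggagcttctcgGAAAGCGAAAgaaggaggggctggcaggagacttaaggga

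The ETS core stands 21 bases before the first of 2 listed starts of Tlr1, whose second window held none of the motifs, and 30 bases before the start of Tlr2. The Tlr2 window also holds 2 overlapping NF-kappaB matches, the first beginning 173 bases before the start. Tlr9 has an AP-1 site and Myd88 an interferon response element. Of 32851 windows of the same length in the table, 19.7% hold the ETS core, 4.46% the AP-1 site, 2.98% the interferon response element and 7.25% the NF-kappaB consensus. A match is a run of letters and was not tested for binding.

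The deficient channel had the higher background, most of all on replicate 1. The negative control spots, which match no gene, had a median signal of 968 in the deficient channel and 326.5 in the wild-type channel there, and of 707 and 406 on replicate 2. Of gene spots, 26.0% and 31.1% were well above background in the deficient channel on replicates 1 and 2, against 32.4% and 28.9% in the wild-type channel. Bcl11b itself was lower in deficient cells with both of its probes. The first had log2 ratios of deficient over wild type of -0.69 and -2.95 (mean -1.82 ± 1.60, SD, n = 2 arrays; adjusted p = 0.00987, limma). For the second, not well above background in the deficient channel on either array, the wild-type signal was at least 2.81-fold higher. Both calls were lost under 5 alternatives, with adjusted p between 0.069 and 0.28 (limma). Among markers of other cell types, 14 of 14 tested macrophage markers (of 18 listed) were higher in deficient samples, with a median log2 ratio of 3.07.

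Most Toll-like receptors gave a signal near the negative controls in these cells. Tlr9 and Myd88 were the only members well above background in both channels on both arrays. In the deficient channel, 3 and 6 of the 13 probes were well above background on replicates 1 and 2, against 5 and 3 in the wild-type channel; a probe printed as several spots counts when a share of at least 0.5 of them is. Tlr1 and Tlr2 were read on both arrays in 1 channel, Tlr1 in wild-type cells and Tlr2 in deficient cells. The other 9 probes, for 6 genes, stayed below the filter for testing and are given as values.

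**Figure D1:**
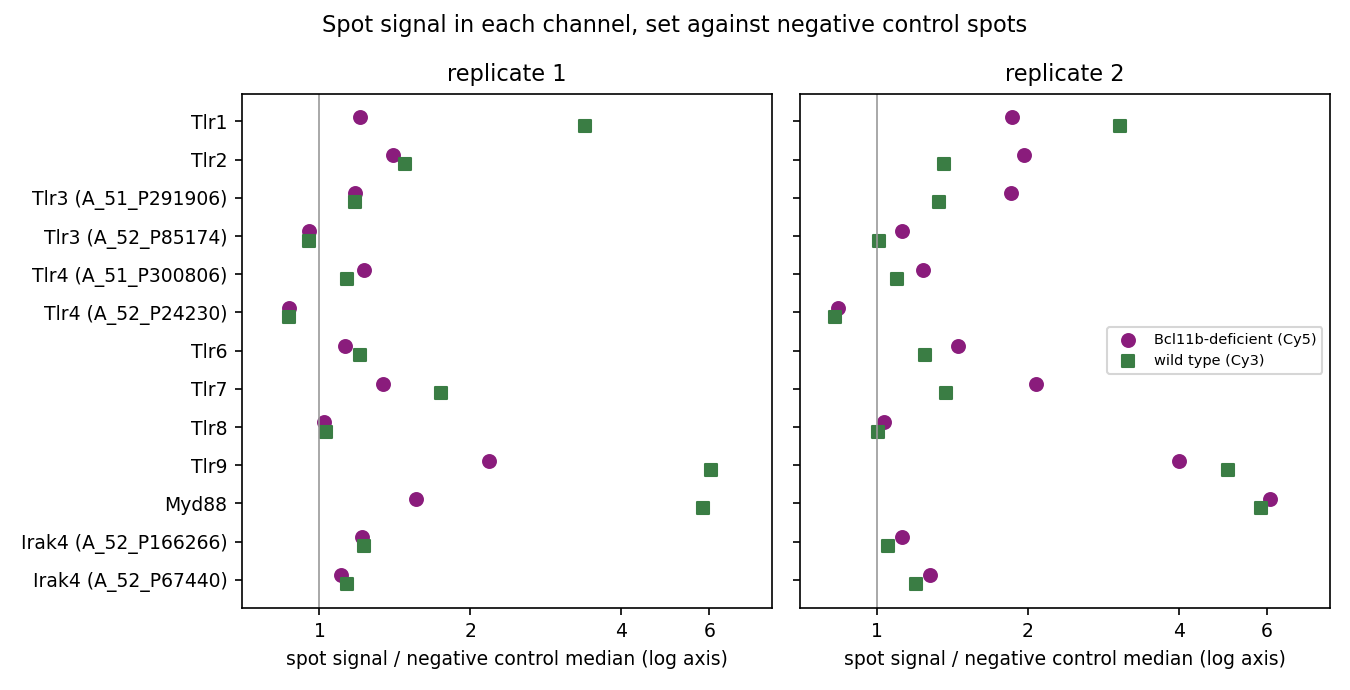
Spot signal of each member probe divided by the median of the negative control spots of the same channel (x axis, log scale, no unit), for replicate 1 (left) and replicate 2 (right); circles are deficient cells and squares wild-type cells. Tlr1, Tlr9 and Myd88 lie well to the right of 1 in wild-type cells on both arrays, and the Myd88 circle lies at 1.56 on replicate 1 and at 6.07 on replicate 2.

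None of the 4 tested member probes passed the test in either direction (limma, Benjamini-Hochberg adjusted p over 12622 probes, threshold 0.05), where 2.73% of all tested probes were higher and 4.87% lower in deficient cells, 7.61% in all. The smallest mean log2 ratio among the probes called was 1.23 in size. At an unadjusted p under 0.05 (limma), 1 of the 4 probes, that of Tlr1, was counted, and so were 2854 of the 12622 tested probes, a similar share. The ratios are relative to the bulk of each array, and the median over tested probes was -0.30 on replicate 1 and -0.02 on replicate 2. Of all tested probes, 64.4% had a higher ratio on replicate 2 than on replicate 1. So did the tested probes of Tlr1, Tlr2 and Myd88, but not that of Tlr9. Among all 13 member probes, most of them too dim to be tested, 9 had a higher ratio on replicate 2.

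**Figure D2:**
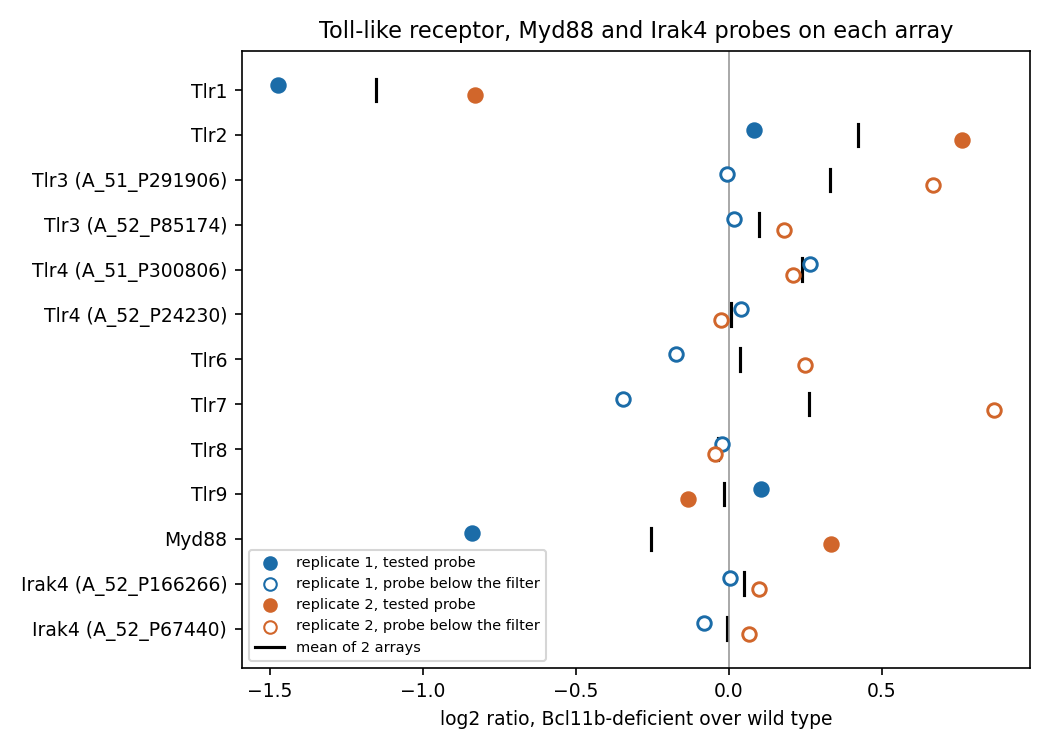
Log2 ratio of deficient over wild-type cells (x axis) for each of the 13 member probes, by array (colour), with the mean of both arrays as a bar; filled points are tested probes and open points are probes below the filter. Tlr1 lies left of 0 on both arrays, at -1.47 and -0.83, while Myd88 lies at -0.84 on replicate 1 and 0.33 on replicate 2.

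Tlr1, the surface receptor that joins Tlr2 to bind triacylated lipoproteins, had the largest mean difference of the 13 probes. Its probe (A_51_P495581, chr5:65204011-65204070 on mm8) gave a mean spot signal of 1167 and 1316 in deficient cells on replicates 1 and 2, against 1106 and 1240 in wild-type cells. Raw signals of the channels cannot be set against each other directly, because the deficient channel carries the higher background. After the scanner program's own background surface was subtracted, 150 and 575 remained in deficient cells, against 770 and 832 in wild-type cells. These values carry no dye correction, so the direction is taken from the normalized ratios. The normalized log2 ratios were -1.47 and -0.83, a mean of -1.15 ± 0.46 (SD, n = 2), or 2.22-fold lower in deficient cells. This did not pass the test (adjusted p = 0.0708, limma). Among tested probes, 7.14% had a lower mean ratio. On replicate 1 the deficient signal was not well above background, and 16 of 153 negative control spots were at least as bright, against 0 of them on replicate 2. The program's per-spot p-values, which hold spot error only, were 3.77e-13 and 1.25e-06, with log2 ratios of -3.02 and -1.33. By the rule of such a p under 0.01 with 1 sign on both arrays, Tlr1 was lower, as were 3.80% of all gene probes, while 1.64% were higher. Most gene probes were too dim to be tested. Among the 12622 tested probes, to which Tlr1 belongs, the rule called 1540 lower and 677 higher.

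Tlr2, the shared partner of Tlr1 and Tlr6, is printed as 10 spots on each array (A_51_P452629, chr3:83922349-83922408). Its mean signal was 1358 and 1389 in deficient cells, against 483 and 551 in wild-type cells. The log2 ratio was 0.08 on replicate 1, with spots between -0.13 and 0.19, and 0.76 on replicate 2, with spots between 0.57 and 0.87. The spots of the arrays did not overlap, and the spot SD was 0.091 on replicate 1 and 0.080 on replicate 2. The mean of 0.42 ± 0.48 (SD, n = 2) was not distinguishable from 0 (adjusted p = 0.548, limma). Its detection also changed between arrays: on replicate 1, 5 of 10 spots were well above background in deficient cells and 7 of 10 in wild-type cells, and on replicate 2, 10 of 10 and 1 of 10.

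Tlr6, the other partner of Tlr2, was not well above background in either channel on either array (A_52_P117393, chr5:65232261-65232320). Its signal was 1091 and 1024 in deficient cells, against 394 and 507 in wild-type cells, and its log2 ratios were -0.17 and 0.25. The same held for Tlr4, the lipopolysaccharide receptor, with both of its probes. The 10 spots of the first (A_51_P300806, chr4:66329051-66329109), of which 9 and 8 were used, gave log2 ratios of 0.26 and 0.21, with no spot above background in either channel. The second (A_52_P24230, chr4:66415883-66415942) was no brighter than any of the 153 negative controls in both channels on both arrays, with log2 ratios of 0.04 and -0.03. It is named Tlr4 on the array from a cDNA clone and lies 86774 bases from the first probe, whereas the annotated gene spans 19031 bases on GRCm38.p6, so its assignment to Tlr4 is uncertain.

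**Figure D3:**
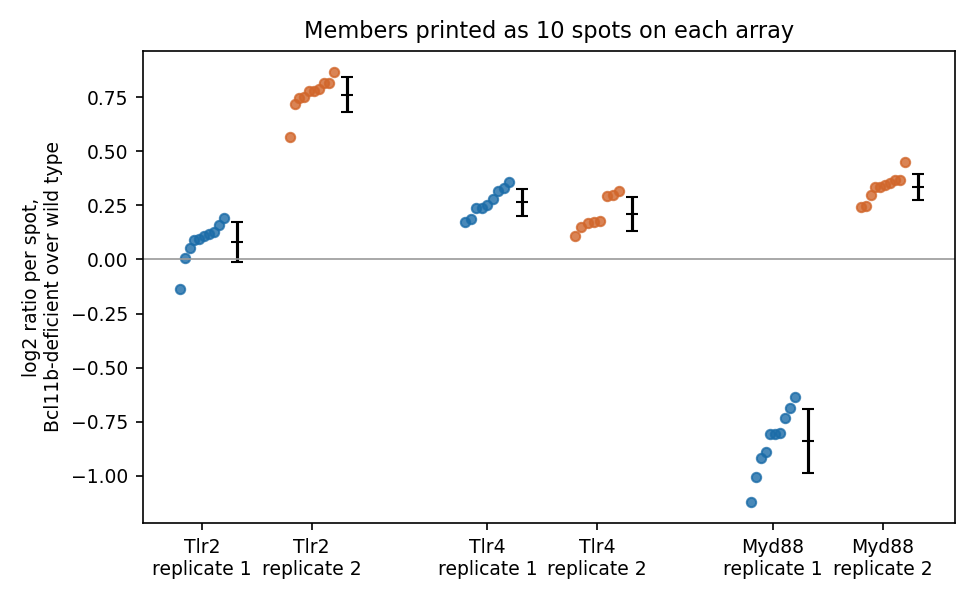
Log2 ratio of deficient over wild-type cells for each spot (y axis) of the 3 member probes that are printed as 10 spots per array; bars at the side are the mean and SD over spots, outlier spots left out. The spots of Myd88 lie between -1.12 and -0.64 on replicate 1 and between 0.24 and 0.45 on replicate 2, while those of Tlr4 overlap between the arrays.

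Among the endosomal receptors, Tlr9, the receptor for unmethylated CpG DNA, was well above background in both genotypes, with a mean log2 ratio near 0 that depended on the normalization. Its probe (A_51_P432563, chr9:106084749-106084808) had a signal of 2107 and 2826 in deficient cells, against 1977 and 2039 in wild-type cells, all well above background. The log2 ratios were 0.10 and -0.13, with a mean of -0.02 ± 0.17 (SD, n = 2; adjusted p = 0.987, limma), and the mean was 0.14 when each array was centred on its tested probes. With median centring in place of loess the ratios were -1.10 and -0.30, a mean of -0.70 (adjusted p = 0.467, limma). Replicates 1 and 2 differed by 0.24, less than the median difference of 0.52 between the arrays over all tested probes.

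Tlr7, a receptor for single-stranded RNA, was read in different channels on the arrays (A_51_P371710, chrX:162649362-162649421). Its signal was 1298 and 1467 in deficient cells, against 572 and 557 in wild-type cells. On replicate 1 the wild-type channel was well above background and the log2 ratio was -0.34; on replicate 2 the deficient channel was, and the ratio was 0.87. The arrays thus gave opposite signs, and the probe entered no test. Tlr8, which also senses RNA and neighbours Tlr7 on the X chromosome, had log2 ratios of -0.02 and -0.05 (A_51_P176893, chrX:162586888-162586947). Its signal of 990 and 728 in deficient cells, against 336 and 408 in wild-type cells, lay within the range of the negative controls.

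Tlr3, the receptor for double-stranded RNA that signals through Ticam1, has 2 probes that lie close together. The first (A_51_P291906, chr8:46895472-46895531) had log2 ratios of -0.01 and 0.67, and was well above background only in deficient cells on replicate 2. The second (A_52_P85174, chr8:46895192-46895251) was not above background anywhere and had log2 ratios of 0.02 and 0.18. On replicate 2, 6 member probes were well above background in deficient cells. Of these, Tlr2, Tlr7 and the first Tlr3 probe had log2 ratios of 0.67 to 0.87 there. On replicate 1 these 3 lay between -0.34 and 0.08. The others, Tlr1, Tlr9 and Myd88, had -0.83, -0.13 and 0.33 on replicate 2. The first 3 were set together by their values on replicate 2, so their likeness there is no separate result.

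Myd88, the adaptor that these receptors share, was bright and gave opposite answers on the arrays. Its 10 spots (A_52_P282762, chr9:119184902-119184961) were well above background in both channels on both arrays. Its mean signal was 1506 and 4289 in deficient cells on replicates 1 and 2, against 1899 and 2368 in wild-type cells. The log2 ratio was -0.84 on replicate 1 (spots -1.12 to -0.64, spot SD 0.147) and 0.33 on replicate 2 (spots 0.24 to 0.45, spot SD 0.060). The spots did not overlap between arrays, and the sign differed under every background correction and normalization tried. The mean of -0.25 ± 0.83 (SD, n = 2) was not distinguishable from 0 (adjusted p = 0.731, limma). The difference of 1.17 between arrays was larger than that of 83.4% of tested probes, and 16 of the 93 tested probes with 10 spots differed more. The spot error within an array therefore does not describe the error between arrays: the scanner program gave a p under 0.01 to 10 of 10 Myd88 spots on replicate 1 and to 0 of 10 on replicate 2.

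Irak4, the kinase that Myd88 recruits, was not well above background with either of its probes. The first (A_52_P166266, chr15:94382196-94382923, a span of 728 bases) had log2 ratios of 0.00 and 0.10, and the second (A_52_P67440, chr15:94395492-94395551) had -0.08 and 0.07. Signals of the first were 1180 and 793 in deficient cells, against 401 and 426 in wild-type cells. No difference in Irak4 was detectable at this brightness.

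The rest of the pathway was described with lists of 84 genes, of which 80 had a probe and 53 could be tested. In deficient cells 7 were higher and 3 lower, 13.2% and 5.66% of those tested, where 3.16% and 4.30% of all 9931 tested genes were called (limma, adjusted p, threshold 0.05, brightest tested probe of a gene). The 3 called lower, Ikbke, Tbk1 and Il1rl2, entered the test through the wild-type channel alone. With both channels required to be above background, 7 pathway genes were higher and 0 lower. The median log2 ratio of the 53 genes was 0.38, against -0.12 over all tested genes. Tlr5 had a probe that was not well above background, and Tlr11, Tlr12, Tlr13 and Tasl were not analysed here.

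**Figure D4:**
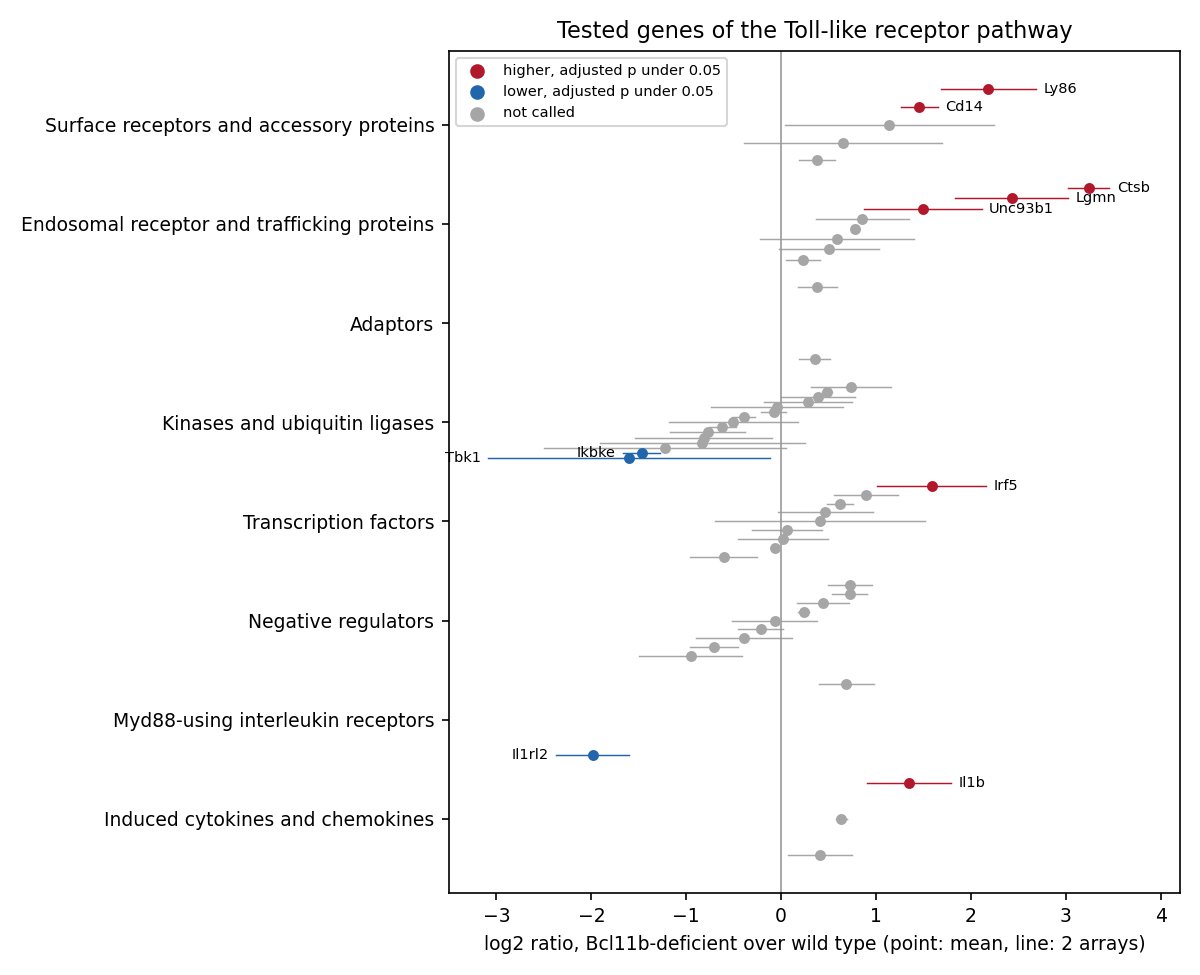
Mean log2 ratio of deficient over wild-type cells (x axis) for the 53 tested pathway genes, grouped by role; each line spans the values of both arrays, and red and blue mark genes called higher or lower. Called genes are labelled, from Ctsb at 3.24 to Il1rl2 at -1.99.

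Some genes for proteins that help receptors at the surface and in endosomes were among the higher ones. Of 5 tested surface and accessory genes, 2 were higher. Ly86, which pairs with the receptor-like protein Cd180 on B cells and myeloid cells, had log2 ratios of 1.68 and 2.68 (mean 2.18 ± 0.71, SD, n = 2; 4.54-fold; adjusted p = 7.7e-04, limma). Cd14, the lipopolysaccharide co-receptor of monocytes and macrophages, had 1.26 and 1.65 (mean 1.46 ± 0.27; adjusted p = 0.0208, limma). Cd36, a scavenger receptor that assists Tlr2, had 0.04 and 2.24 (mean 1.14 ± 1.56; adjusted p = 0.110, limma), and Cd180 had -0.39 and 1.70. Both of these were thus high on replicate 2 alone.

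Of 8 tested endosomal and trafficking genes, 3 were higher. Unc93b1, which carries the nucleic acid receptors to endosomes, had log2 ratios of 0.87 and 2.11 (mean 1.49 ± 0.87, SD, n = 2; adjusted p = 0.0219, limma). The lysosomal proteases Lgmn and Ctsb, which can cut endosomal receptors, had 1.83 and 3.02 (mean 2.43 ± 0.84; adjusted p = 2.4e-04, limma) and 3.46 and 3.03 (mean 3.24 ± 0.30; adjusted p = 2.9e-06, limma). A second Ctsb probe had a mean of 0.37 (adjusted p = 0.592, limma), so the probes of Ctsb disagreed in size. Ctsk, another protease of this list, had 1.35 and 0.37 and did not pass.

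Neither of the 2 tested adaptor genes passed: Ticam1 had a mean log2 ratio of 0.35 and Pik3ap1 0.38. Of 15 tested kinases and ubiquitin ligases, 2 were lower, both kinases that act on interferon regulatory factors. Ikbke had log2 ratios of -1.66 and -1.28 (mean -1.47 ± 0.27, SD, n = 2; adjusted p = 0.0197, limma). It too did not clear background in deficient cells on either array, and its wild-type signal was at least 2.38-fold higher. Tbk1 had -3.09 and -0.11 (mean -1.60 ± 2.10; adjusted p = 0.0339, limma), so its call rests on replicate 1. Tab3 had -2.50 and 0.05, and Ikbkb -1.54 and -0.10, the same one-array pattern, without passing. The list's median was -0.50 for the mean of both arrays, -0.76 on replicate 1 and 0.05 on replicate 2.

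Of 9 tested transcription factors, Irf5, which acts downstream of Myd88 in myeloid and B cells, was the 1 that was higher, with 1.01 and 2.16 (mean 1.59 ± 0.81, SD, n = 2; adjusted p = 0.0139, limma). Relb had a mean of 0.89, Irf7 0.62 and Nfkb1 -0.60, none of which passed. None of the 9 tested negative regulators was called. The deubiquitinase Cyld had a mean of -0.95, Dusp1 0.73, Otud7b 0.72 and Sigirr -0.71.

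Interleukin receptors that use Myd88, and Il1r2 listed with them, were mostly dim. Il1rl2, a subunit of the interleukin 36 receptor, was lower with log2 ratios of -2.37 and -1.60 (mean -1.99 ± 0.54, SD, n = 2; adjusted p = 0.00199, limma). In deficient cells it did not clear background on either array, and the wild-type signal was at least 1.14-fold higher. Il18r1, the interleukin 18 receptor chain that CD8+ T cells use for early interferon-gamma release, was well above background throughout, with 0.40 and 0.97 (mean 0.69 ± 0.41; adjusted p = 0.306, limma). Il18rap, its partner chain, had -1.55 and 1.07 and could not be tested. Il1r1, Il1rap, Il1rl1 and Il1r2 had no test, with mean log2 ratios of -0.08, 0.09, 0.36 and 0.05. Among induced cytokines, 3 of 12 were tested, and Il1b was higher with 0.91 and 1.79 (mean 1.35 ± 0.63; adjusted p = 0.0342, limma). Ccl4 had a mean of 0.63 and Tnf 0.41, neither of which passed.

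Macrophage and B cell markers were higher in the same samples as these pathway genes. So were 3 of 8 tested neutrophil markers and 3 of 5 tested NK cell markers, with list median log2 ratios of 1.12 and 1.59. The 3 NK cell markers were Klrb1c, Tyrobp and Fcgr3. Ncr1 and Eomes of the same list had mean log2 ratios of 0.64 and 0.81 and did not pass. In wild-type cells, Klrb1c and Fcgr3 were well above background on 1 array only. The summed signals below carry no dye correction, so the channels cannot be set against each other directly. Summed over 14 macrophage markers, the signal above the negative control median was 146132 and 406470 in deficient cells, against 39836 and 31161 in wild-type cells. Over 8 B cell markers, of which 6 were higher, it was 70017 and 304308 in deficient cells, against 52097 and 36433 in wild-type cells. Over 5 dendritic cell markers, of which 3 were higher, it was 9190 and 45380 in deficient cells, against 9432 and 9508 in wild-type cells. After normalization their median log2 ratio was 1.05 on replicate 1 and 2.38 on replicate 2. Over 14 CD8 T cell markers, of which 6 were lower, the summed signal was 59725 and 104156 in deficient cells, against 202285 and 238722 in wild-type cells. Adgre1 and Csf1r, defining genes of macrophages, had mean log2 ratios of 3.35 and 3.25, whereas Cd8a and Cd8b1 had -0.91 and -1.10 and did not pass. Of the macrophage markers, Siglec1 was not well above background in either channel, and Mertk, Cd163 and Axl only in deficient cells on replicate 2. The part of these cells in the ratios of Toll-like receptors and pathway genes was not tested. In bulk RNA, fewer cells of a type and less RNA per cell cannot be told apart.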

How the data were processed

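The data are 2 two-colour Agilent mouse arrays. Per the file headers, the authors' scanner files hold spot intensity values from Agilent Feature Extraction 9.5.3.1, together with its log10 ratio of red over green after its own background and dye correction and a per-spot p-value. Per the file headers, the program also gave an error score for each log ratio, which was not used in the tests. The authors' deposited value table equals that log10 ratio to within 0.00500, with column medians of 0. Per the labels, the deficient sample carried Cy5 on both arrays.

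Mean signals were corrected with normexp (offset 50) on the local background and normalized by loess within arrays. Control spots had weight 0, outlier spots (255 and 195) were left out and spots of a probe were averaged. Tests were limited to probes for which 1 and the same channel cleared background on both arrays by the program's flag (at a share of at least 0.5 of the spots), which left 12622 of 41174 probes. Log2 ratios of deficient over wild type were set against 0 in limma 3.58.1 under R 4.3.3 (two-sided, Benjamini-Hochberg adjustment over all tested probes, threshold 0.05), with statmod 1.5.0 for separate channels. With 2 arrays, 1 residual degree of freedom per probe remains, and the number of arrays limits the precision. The procedure was tested on simulated probes drawn independently of each other, with no shift shared by an array. There, the share of false calls came out above the threshold and most of the smallest changes simulated were missed. Real probes can vary together, so the share of false calls in these data may differ. Calls near the threshold are uncertain. Where 1 group cleared background on neither array, the fold is a bound. It divides the bright group's mean by a floor for the dim group: on each array, the faintest signal that still cleared background, or the dim probe's own signal if that was brighter. Channel values for this came from loess followed by Aquantile and are open to dye bias.

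Of the gene probes, 24375 were named by accession and 8727 by symbol or synonym from RefSeq (GRCm38.p6), and 8072 kept the array's name. Probes are placed on mm8 as the array files give them, without a genome of that build, so exons were not assigned.

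The members, lists and tests were chosen with earlier results of these data known. Every member probe is described. Of each pathway list, up to 4 genes with the smallest adjusted p are named, and beside them every gene of the interleukin receptor list. Genes with a pattern like that of a called member were to be named, but no member was called. The cell type lists (macrophage, dendritic cell, B cell, neutrophil, CD8 T cell and NK cell) gave 14 of 14, 3 of 5, 6 of 8, 3 of 8, 0 of 14 and 3 of 5 tested genes higher in deficient cells. Alternatives were other background corrections, normalizations, filters, probe summaries and tests.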

Additional observations from a re-analysis of the deposited data

How the results depend on the processing

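No member probe was called with any alternative fit. The exception was the scanner program's per-spot p under 0.01 on both arrays, a rule without array error, which called 677 probes higher and 1540 lower among the 12622 tested (1565 lower among all gene probes) and 1 member lower, Tlr1 at -2.18. Elsewhere the adjusted p of Tlr1 lay between 0.0535 and 0.277, and its mean between -2.18 and -0.66; it could not be tested when both channels had to be above background. Tlr2 stayed above 0 and Myd88 below 0 as means, while Tlr9 lay between -0.70 with median centring and 0.14 when arrays were centred on tested probes. Leaving out 1 array left a value with no test: Tlr1 -1.47 to -0.83, Tlr2 0.08 to 0.76, Tlr9 -0.13 to 0.10 and Myd88 -0.84 to 0.33, so the sign of Myd88 depended on the array, and so did that of Tlr9 except with median centring (-1.10 and -0.30). The scanner program's ratios and the deposited table called 0 probes and 0 pathway genes in each direction (2511 probes at an unadjusted p under 0.05 with either). No filter also gave 0 of each (7409 unadjusted), and so did separate channels (2295). Against 345 probes higher and 615 lower, no background correction gave 277 and 166, median centring 71 and 441, centring on tested probes 608 and 625, and both channels above background 479 and 172. Of pathway genes, 7 higher and 3 lower became 6 and 0 without background correction, 7 and 0 with both channels above background, 7 and 5 with the mean of probes, and 2 and 1 with median centring, where their median was -0.068 and that of tested probes -0.40. Both Bcl11b probes lost their call with the scanner program's ratios, the deposited table, no filter, separate channels and no background correction. The causes of these changes were not tested. Rules that ask all spots or any spot of a probe to be above background, chosen after seeing the data, changed no member's call, but Tlr2 could not be tested with the first. The test of the ratios against 0 is already paired, because each array holds both genotypes as 1 ratio.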
